A study of Homo sapiens with 8 samples.

Results

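Interferon-stimulated genes were followed in MDA-MB-157 cells, an established human breast cancer line without estrogen receptor. The 50 genes compared are a given list of symbols, and all 50 had a row among the 21059 genes of the table. They were divided by role into 4 transcription factors of the STAT and IRF families, 3 cytoplasmic RNA sensors and 43 effectors. Per the study's methods, cells were first adapted to medium with low glucose, and were then kept without serum for 48 hours either in 5 mM glucose (low glucose, 4 libraries) or in 25 mM glucose (high glucose, 4 libraries), a concentration used to model hyperglycemia. The labels name no interferon, virus or other agent in either group. The 2 groups come from 1 cell line, and no library with an osmotic control is among the 8.

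Type I interferons are cytokines that bind a receptor pair on the cell surface and activate the kinases JAK1 and TYK2, which phosphorylate STAT proteins, STAT2 among them. STAT2 and IRF9 are parts of the factor ISGF3, which binds the interferon-stimulated response element (ISRE) in the promoters of its targets, while the response to interferon-gamma runs through the gamma-activated sequence (GAS). The targets include the sensors that detect foreign or misplaced RNA and the enzymes and membrane proteins that restrict viruses, and in breast cancer cells many of them are transcribed at a basal level without added interferon.

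RNA abundance is given in CPM, the counts per 1000000 reads as the authors scaled them, and changes as differences of log2(CPM + 1) between high and low glucose, tested with limma over all genes. The libraries held an estimated 9721640 to 12482500 reads, and 3 reads were worth 0.212 to 0.267 CPM. High glucose replicate 1 differed from the other high glucose libraries in a way that followed transcript length, so results that change without it are given both ways. Replicate 4 deviated with length in the opposite direction, as described further below. Whether the replicates were separate cultures or passages is not stated in the sources used here, and the p-values measure the spread between these samples. The estrogen receptor gene ESR1 was at or below 3 reads in all 8 libraries. The pan-leukocyte gene PTPRC and the lysozyme gene LYZ were also at or below 3 reads in all 8 libraries, while CD14, a further leukocyte marker, averaged 1.25 CPM at low against 4.24 CPM at high glucose (log2 change 1.199 ± 0.21 SE, adjusted p = 0.00252). The summed level of the 3 leukocyte markers measured was 0.947 to 1.67 CPM at low and 2.93 to 5.93 CPM at high glucose, and its part in the results was not tested. Of 3 endothelial markers, all under 3 CPM on average, PECAM1 rose and CDH5 and VWF fell, and their part was not tested either. Among the line's own markers, the keratin genes KRT8 and KRT18 and the mesenchymal genes VIM and FN1 fell while EPCAM and CDH2 rose.

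Interferon-stimulated genes were lower at high glucose. Of the 50 genes, 36 fell and 2 rose past an adjusted p of 0.05 (limma), and 12 did not pass. Over all 21059 genes, 24.8% fell and 22.0% rose by the same rule, and 46.8% were called in either direction. Among the 14372 genes with a mean of at least 1 CPM, which all 50 members also reach, 32.6% fell and 29.5% rose. The median log2 change was -0.47 over the members, against -0.042 over the genes with a mean of at least 1 CPM and -0.0092 over all genes. In 36 members every high glucose library lay below every low glucose library, in 2 every high glucose library lay above, and in 12 the groups overlapped, beside a background of 23.6% of all genes separated downward and 20.9% upward. Summed over the 50 members, the level was 1875 to 1885 CPM in the low glucose libraries and 1332 to 1358 CPM in the high glucose libraries. These are bulk samples, so fewer cells that express a gene and less RNA per cell cannot be told apart.

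The size of the falls varied among the members. The changes ranged from -1.25 for TRIM22 to 0.45 for HERC5, and 46 of the 50 estimates were negative. A change of -1 or less in log2(CPM + 1) was reached by 5 members (TRIM22, LGALS3BP, IFI35, OAS2 and STAT2). Of all genes, 2.45% were called with a change of that size. Among the genes with a mean of at least 1 CPM, 3.65% had such a change, called or not. This scale understates the falls of low genes such as OAS1, which fell 3.55-fold in mean CPM. At a log2 change of -0.5 or less stood 24 members, or 48% of them, against 19.4% of the genes with a mean of at least 1 CPM. Of the 4 factors 2 fell, 1 rose and 1 did not pass, of the 3 sensors 2 fell and 1 did not pass, and of the 43 effectors 32 fell, 1 rose and 10 did not pass. The median change was -0.41 for the factors, -0.24 for the sensors and -0.49 for the effectors. No test was made between the roles.

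**Figure D1:**
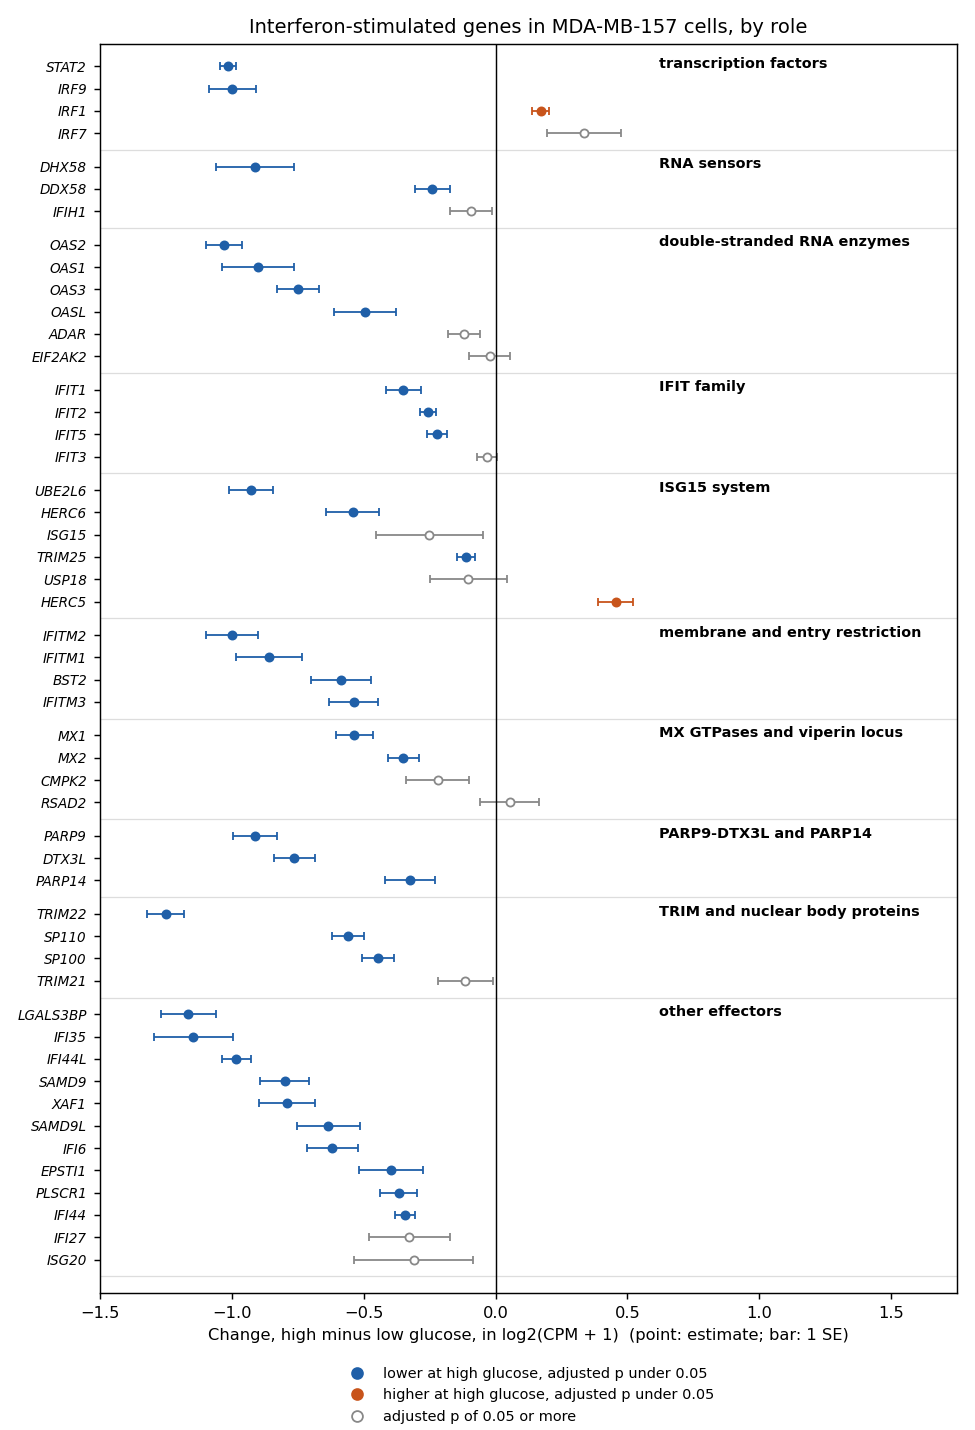
Change of each of the 50 interferon-stimulated genes between high and low glucose, grouped by role, in log2(CPM + 1). Points are limma estimates and bars are 1 SE. Filled blue points mark the 36 genes that fell, filled orange points the 2 that rose (IRF1 and HERC5) and open points the 12 that did not pass an adjusted p of 0.05.

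**Figure D2:**
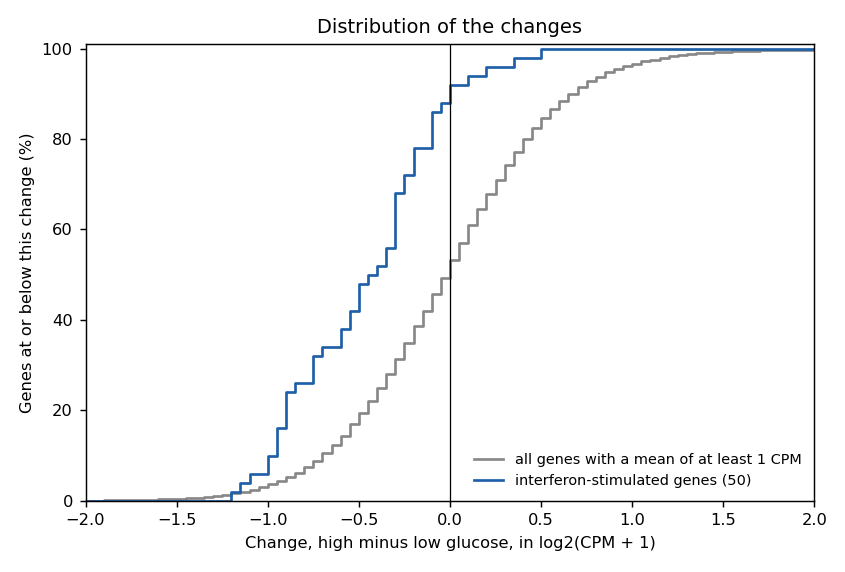
Cumulative distribution of the log2 change, in percent of genes at or below each value, for the 50 members (blue) and the 14372 genes with a mean of at least 1 CPM (grey). The curve of the members lies above that of all genes through most of the negative range, with 48% against 19.4% at or below -0.5 and 92% against 53.3% at or below 0. The curves are drawn in steps of 0.05.

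Many promoters of the members hold letters of the kind that interferon factors bind, and a few are shown so that genes that fell, rose or did not pass can be compared by letters. Promoters from 250 bases before to 50 after the RefSeq start (build GRCh38.p14) were matched by symbol for 41 members, and those of IRF7, DHX58, OAS2, OASL, IFIT2, USP18, IFITM2, MX2 and TRIM22 were not analysed here. On either strand, the ISRE core, GAAA and again GAAA with any 2 bases between them, was found in 24 of the 41 (58.5%), against 3.49% of 35059 promoters outside the list. The longer form, the same core with a C directly after it, was found in 20 (48.8%), against 0.722% of those promoters. The GAS letters TTCNNNGAA, which can overlap a core at its GAA, were found in 10 (24.4%), against 7.63%. Each window below has 30 bases, reads 5′ to 3′ along the gene's strand and has the matching letters in capitals, and these read TTTC and again TTTC where the core lies on the opposite strand. The first group holds members that fell, from different role groups.
OAS3 (chr12:112938452-112938481, plus strand): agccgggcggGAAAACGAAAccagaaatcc
IFIT1 (chr10:89392510-89392539, plus strand): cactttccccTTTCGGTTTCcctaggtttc
IFITM3 (chr11:320876-320905, minus strand): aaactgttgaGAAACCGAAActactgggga
BST2 (chr19:17405738-17405767, minus strand): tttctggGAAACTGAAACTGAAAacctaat
MX1 (chr21:41420559-41420588, plus strand): gagcagaaatGAAACCGAAActgaattgtc
DTX3L (chr3:122564322-122564351, plus strand): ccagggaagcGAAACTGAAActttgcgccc
LGALS3BP (chr17:78979962-78979991, minus strand): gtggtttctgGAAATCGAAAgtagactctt
The next group holds a member that rose (HERC5) and 4 that did not pass (ISG15, IFIH1, EIF2AK2 and IFIT3).
HERC5 (chr4:88456987-88457016, plus strand): attacagTTTCCTTTTCCTTTTCgattccg
ISG15 (chr1:1013377-1013406, plus strand): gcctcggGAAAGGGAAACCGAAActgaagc
IFIH1 (chr2:162318686-162318715, minus strand): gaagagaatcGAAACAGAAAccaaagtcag
EIF2AK2 (chr2:37156967-37156996, minus strand): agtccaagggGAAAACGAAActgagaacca
IFIT3 (chr10:89327865-89327894, plus strand): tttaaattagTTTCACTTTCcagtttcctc
The core has CT between its repeats in BST2 and DTX3L, and AC in both OAS3, which fell, and EIF2AK2, which did not pass. Of the 24 members with a core, 16 fell, 1 rose and 7 did not pass, with a median log2 change of -0.36. Of the 17 with a promoter but no core, 13 fell, 1 rose and 3 did not pass, with a median of -0.56. Most members fell both with and without a core in these windows. No core was found in the windows of the factors STAT2, IRF9 and IRF1, and a GAS match was found in those of IRF9, which fell, and IRF1, which rose.
IRF9 (chr14:24161191-24161220, plus strand): gaccacgtgatTTCTGGGAAaaggccctcc
IRF1 (chr5:132490879-132490908, minus strand): aacagcctgatTTCCCCGAAatgacggcac

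Among the transcription factors, the ISGF3 partners STAT2 and IRF9 fell by about the same amount. STAT2 (ENSG00000170581.14, chr12:56341597-56360107) had 163, 173, 161 and 165 CPM in the low glucose libraries and 82.9, 84.1, 78.7 and 80.3 CPM in the high glucose libraries. It fell from 166 ± 5.21 CPM (SD, n = 4) to 81.5 ± 2.46 CPM (SD, n = 4), a log2 change of -1.01 ± 0.031 SE (adjusted p = 1.51e-06), and the high glucose libraries all lay near the same value, far below the lowest at low glucose. IRF9 (ENSG00000213928.8, chr14:24161265-24166565), which gives ISGF3 most of its sequence specificity, had 19.7, 23.04, 17.8 and 18.1 CPM at 5 mM and 9.19, 8.94, 10.3 and 8.83 CPM at 25 mM glucose (log2 change -0.997 ± 0.090 SE, adjusted p = 0.000107). Its groups did not overlap either, but 93.1% of the bases of its transcript coincide with exons of another annotated gene on the same strand, and how the authors' counting divided such reads is not given in the sources used here.

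The other 2 factors did not fall. IRF1 (ENSG00000125347.14, chr5:132481609-132490773), a factor induced by interferon-gamma, had 25.5, 25.5, 26.1 and 24.1 CPM at low glucose and 29.6, 27.8, 28.9 and 28.2 CPM at high glucose. All 4 high glucose libraries lay above all 4 low glucose libraries, and the rise was small (log2 change 0.17 ± 0.032 SE, adjusted p = 0.00366). IRF7 (ENSG00000185507.20, chr11:612555-615950), which drives transcription of the interferon genes after sensing, had 3.08, 4.14, 5.01 and 3.64 CPM in the low glucose libraries and 6.21, 5.34, 4.87 and 4.53 CPM in the high glucose libraries. Its groups overlapped, and its estimate was above 0 but did not pass (log2 change 0.34 ± 0.14 SE, adjusted p = 0.0931). IRF7 passed in 3 alternatives, with an adjusted p of 0.0442 when only genes with a mean of at least 1 CPM were fitted, 0.0183 with the length trend removed, in a fit that held only the 14285 genes with a mean of at least 1 CPM and a known transcript length, and 0.0379 without low glucose replicate 3.

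**Figure D3:**
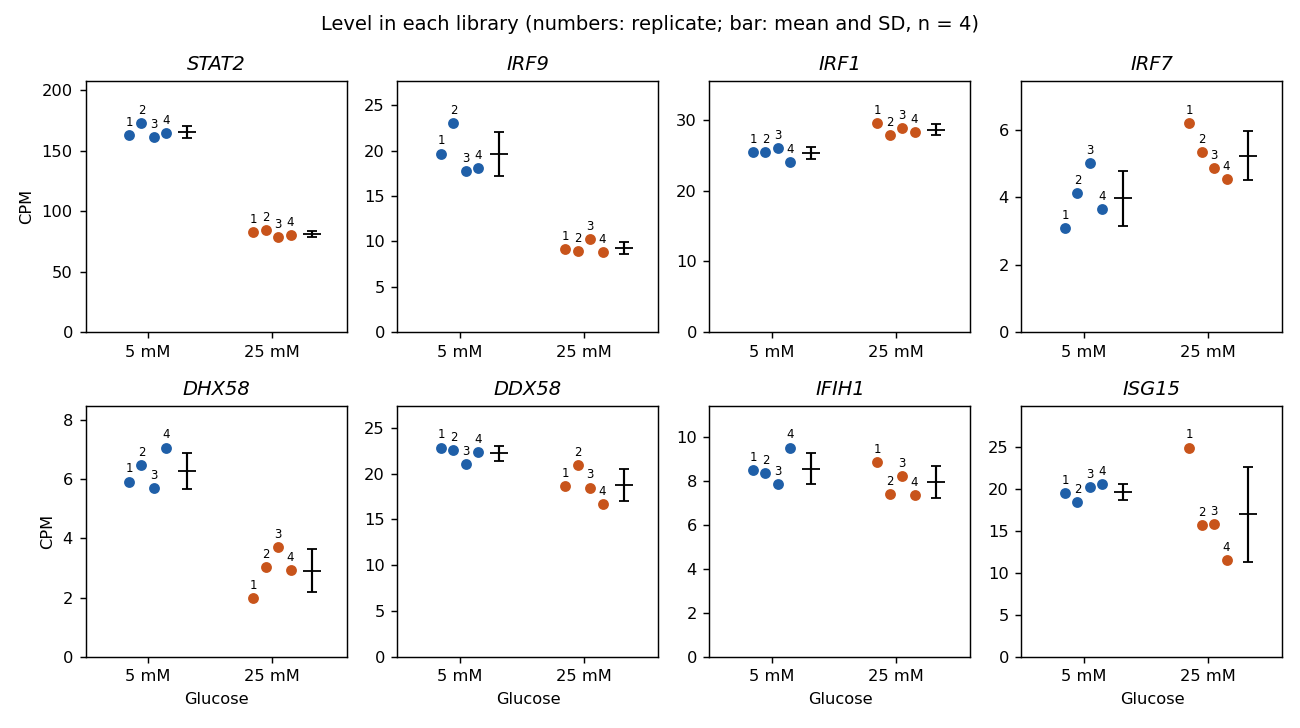
CPM in each library for the 4 transcription factors, the 3 RNA sensors and ISG15 at 5 mM (blue) and 25 mM (orange) glucose, with replicate numbers beside the points and the mean and SD (n = 4) as black bars. STAT2, IRF9, DHX58 and DDX58 separate downward, IRF1 separates upward, and IRF7, IFIH1 and ISG15 overlap, ISG15 through high glucose replicate 1 at 24.99 CPM.

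The 3 RNA sensors of the RIG-I family differed in the size of their estimates. DHX58 (ENSG00000108771.13), which encodes LGP2, a member without the signalling domains of the others, had 5.92, 6.46, 5.69 and 7.07 CPM at 5 mM and 1.98, 3.03, 3.71 and 2.93 CPM at 25 mM glucose. Its estimate was the most negative of the 3 (log2 change -0.91 ± 0.15 SE, adjusted p = 0.00185), a difference that was not tested, and every high glucose library was below every low glucose library. DDX58 (ENSG00000107201.10), which encodes RIG-I, a sensor of RNA with 5′ triphosphates, had 22.8, 22.5, 21.1 and 22.4 CPM at low glucose and 18.6, 20.96, 18.5 and 16.7 CPM at high glucose. Its groups were separated by a narrow margin (log2 change -0.24 ± 0.066 SE, adjusted p = 0.0207). The DDX58 call was lost in 4 of the 8 fits that left out a library, with an adjusted p of 0.0558 without low glucose replicate 1, 0.0532 without low glucose replicate 2, 0.0513 without low glucose replicate 4 and 0.0506 without high glucose replicate 3. In addition, 96.6% of its transcript lies under exons of another annotated gene on the same strand. IFIH1 (ENSG00000115267.7), which encodes MDA5, a sensor of long double-stranded RNA, had 8.502, 8.36, 7.899 and 9.54 CPM in the low glucose libraries and 8.89, 7.41, 8.25 and 7.38 CPM in the high glucose libraries. Its groups overlapped (log2 change -0.093 ± 0.081 SE, adjusted p = 0.401).

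The enzymes that act on double-stranded RNA split between the oligoadenylate synthetases, all 4 of which fell, and EIF2AK2 and ADAR, which did not pass. The synthetases make the 2′-5′ linked oligoadenylates that signal the presence of such RNA. OAS2 (ENSG00000111335.12) had 7.67, 7.79, 7.305 and 7.58 CPM at 5 mM and 3.11, 3.19, 3.63 and 2.93 CPM at 25 mM glucose (log2 change -1.03 ± 0.068 SE, adjusted p = 2.43e-05). OAS3 (ENSG00000111331.13) had 14.9, 14.8, 13.1 and 13.1 CPM at low glucose and 6.92, 8.13, 7.92 and 8.71 CPM at high glucose (log2 change -0.75 ± 0.080 SE, adjusted p = 0.000241). In both genes the high glucose values stayed near each other and well below the low glucose values. OAS1 (ENSG00000089127.13) had 2.501, 1.49, 1.699 and 1.68 CPM in the low glucose libraries and 0.635, 0.239, 0.577 and 0.622 CPM in the high glucose libraries (log2 change -0.90 ± 0.14 SE, adjusted p = 0.00134). OAS1 was the least abundant member in CPM, its lowest high glucose library was at the value of 3 reads, and its change on the log2(CPM + 1) scale understates the change in CPM, which was 3.55-fold. OASL, a relative without synthetase activity, fell from 3.13 to 1.93 CPM (log2 change -0.49 ± 0.12 SE, adjusted p = 0.0114).

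EIF2AK2, the kinase PKR that halts translation when it binds double-stranded RNA, had 94.9, 97.1, 93.6 and 97.97 CPM at 5 mM and 79.8, 94.9, 102 and 103 CPM at 25 mM glucose. The high glucose libraries spread around the low glucose values, with replicate 1 lowest (log2 change -0.023 ± 0.079 SE, adjusted p = 0.871). The sign of its estimate changed to 0.0094 with median-of-ratios scaling, 0.0022 with equal totals and 0.057 without high glucose replicate 1. ADAR, which edits adenosine to inosine in double-stranded RNA, had 239, 227, 227 and 236 CPM at low glucose and 189, 217, 219 and 231 CPM at high glucose. Its groups overlapped (log2 change -0.12 ± 0.061 SE, adjusted p = 0.153), and it passed with the length trend removed in the fit limited to genes with a mean of at least 1 CPM (log2 change -0.17, adjusted p = 0.00103). With that limit alone ADAR did not pass (adjusted p = 0.0849).

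The IFIT genes, whose proteins bind foreign RNA, showed small changes with little spread. IFIT2 had 20.6, 19.7, 21.3 and 20.6 CPM in the low glucose libraries and 16.96, 17.1, 17.4 and 16.8 CPM in the high glucose libraries (log2 change -0.26 ± 0.031 SE, adjusted p = 0.000427). IFIT5 had 24.1, 24.3, 23.9 and 22.1 CPM at 5 mM and 20.8, 20.01, 19.96 and 19.5 CPM at 25 mM glucose (log2 change -0.22 ± 0.037 SE, adjusted p = 0.00223). IFIT1 had 21.8, 20.5, 19.96 and 20.2 CPM at low glucose and 17.6, 14.3, 15.6 and 16.7 CPM at high glucose (log2 change -0.35 ± 0.065 SE, adjusted p = 0.00384). In these 3 genes no library of one group entered the range of the other. IFIT3, which lies between IFIT2 and IFIT1 on chromosome 10, had 32.5, 31.1, 32.8 and 30.96 CPM in the low glucose libraries and 30.1, 32.5, 29.8 and 32.2 CPM in the high glucose libraries and overlapping groups (log2 change -0.032 ± 0.038 SE, adjusted p = 0.537).

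The ISG15 system, in which a ubiquitin-like protein is joined to other proteins, changed in both directions. UBE2L6, the conjugating enzyme, had 40.9, 43.1, 44.8 and 41.3 CPM at 5 mM and 26.1, 21.3, 19.96 and 20.6 CPM at 25 mM glucose. Every high glucose library lay below every low glucose library, with replicate 1 the highest of its group (log2 change -0.93 ± 0.083 SE, adjusted p = 0.000105). HERC5, the main human ligase for ISG15, had 24.3, 21.2, 25.8 and 23.96 CPM at low glucose and 34.4, 30.9, 32.2 and 34.5 CPM at high glucose. It was the only effector that rose past the threshold (log2 change 0.45 ± 0.065 SE, adjusted p = 0.00103), and all high glucose libraries lay above all low glucose libraries. Its neighbor HERC6, a related ligase gene, had 11.002, 10.1, 11.6 and 9.396 CPM in the low glucose libraries and 6.99, 6.54, 6.02 and 8.18 CPM in the high glucose libraries. HERC6 fell without overlap (log2 change -0.54 ± 0.10 SE, adjusted p = 0.0037).

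ISG15 itself (ENSG00000187608.9) had 19.5, 18.5, 20.3 and 20.6 CPM at 5 mM and 24.99, 15.7, 15.8 and 11.6 CPM at 25 mM glucose. High glucose replicate 1 lay above every other library and the other 3 high glucose libraries lay below every low glucose library, so the groups overlapped through that library (log2 change -0.25 ± 0.20 SE, adjusted p = 0.368). Without high glucose replicate 1 the log2 change was -0.44 (adjusted p = 0.02). USP18, which removes ISG15 from proteins, did not pass (4.23 to 3.85 CPM, log2 change -0.10 ± 0.15 SE, adjusted p = 0.614). In addition, 35.7% of the 31-base words of its transcript also occur in another gene. TRIM25, a ubiquitin ligase that acts on RIG-I, had 96.02, 99.5, 93.9 and 99.4 CPM at low glucose and 84.7, 90.6, 91.6 and 92.9 CPM at high glucose. Its fall was small (log2 change -0.11 ± 0.035 SE, adjusted p = 0.0341) and was the least stable call among the members. It was lost when only genes with a mean of at least 1 CPM were fitted (adjusted p = 0.056), with median-of-ratios scaling (0.145), with equal totals (0.129), and without low glucose replicate 1 (0.0606), 2 (0.0873) or 4 (0.0871) or high glucose replicate 2 (0.0635) or 3 (0.0512).

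All 4 membrane proteins that restrict virus entry or release fell. IFITM3, which blocks fusion of viruses in endosomes, had 235, 234, 242 and 248 CPM in the low glucose libraries and 195, 164, 165 and 139 CPM in the high glucose libraries (log2 change -0.54 ± 0.094 SE, adjusted p = 0.00267). IFITM1 had 21.995, 21.6, 18.7 and 18.1 CPM at 5 mM and 13.5, 9.33, 10.6 and 9.45 CPM at 25 mM glucose (log2 change -0.86 ± 0.12 SE, adjusted p = 0.00109). IFITM2 had 17.3, 15.8, 16.3 and 17.1 CPM at low glucose and 9.61, 7.98, 6.85 and 7.12 CPM at high glucose (log2 change -0.998 ± 0.098 SE, adjusted p = 0.000166). In all 3, high glucose replicate 1 was the highest of its group but still below the lowest low glucose library. The 3 genes lie side by side and share 31-base words with other genes (46.8% for IFITM3, 59.4% for IFITM1 and 17.0% for IFITM2). The gene sharing most words was IFITM1 for IFITM3 and IFITM3 for IFITM2, but a further annotated gene for IFITM1. Exons of that further gene cover 52.5% of the IFITM1 transcript on the same strand. The split of reads among these genes is therefore uncertain. BST2, which tethers budding viruses to the membrane, fell from 19.3 to 12.6 CPM (log2 change -0.59 ± 0.11 SE, adjusted p = 0.00455).

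The MX GTPases fell, and the adjacent genes CMPK2 and RSAD2 did not pass. MX1 had 50.5, 56.3, 58.7 and 53.5 CPM in the low glucose libraries and 38.4, 41.6, 35.3 and 34.7 CPM in the high glucose libraries (log2 change -0.54 ± 0.070 SE, adjusted p = 0.000679). MX2 had 17.9, 17.6, 19.96 and 17.99 CPM at 5 mM and 14.6, 12.8, 14.8 and 14.6 CPM at 25 mM glucose (log2 change -0.35 ± 0.060 SE, adjusted p = 0.00248). Neither gene's groups overlapped. RSAD2, which encodes viperin, an enzyme that makes a chain-terminating nucleotide, averaged 5.72 CPM at low against 5.95 CPM at high glucose (log2 change 0.053 ± 0.11 SE, adjusted p = 0.75). CMPK2, a nucleotide kinase gene, had 4.25, 4.804, 5.18 and 3.57 CPM at low glucose and 3.88, 3.11, 4.12 and 3.56 CPM at high glucose (log2 change -0.22 ± 0.12 SE, adjusted p = 0.179). Both pairs of groups overlapped, and the sign of the RSAD2 estimate turned to -0.0078 without low glucose replicate 2.

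PARP9 and DTX3L, whose proteins form an ADP-ribosylating ubiquitin ligase, fell together. PARP9 had 15.9, 16.98, 16.9 and 18.3 CPM in the low glucose libraries and 7.55, 8.29, 8.66 and 9.95 CPM in the high glucose libraries (log2 change -0.91 ± 0.082 SE, adjusted p = 0.00011). DTX3L had 26.9, 29.1, 26.3 and 24.04 CPM at 5 mM and 14.05, 14.4, 15.4 and 17.2 CPM at 25 mM glucose (log2 change -0.76 ± 0.079 SE, adjusted p = 0.00021). The annotated starts of these 2 genes overlap head to head (chr3:122527924-122564784 and chr3:122564338-122575203), and the ISRE printed for DTX3L lies at the DTX3L start, within the annotated span of PARP9. PARP14, the next member along the chromosome, had 49.8, 53.3, 51.9 and 47.3 CPM at low glucose and 33.5, 39.7, 46.02 and 42.5 CPM at high glucose. Its groups did not overlap, although high glucose replicate 1 was the lowest and replicate 3 came close to the low glucose range (log2 change -0.32 ± 0.095 SE, adjusted p = 0.0271). The PARP14 call was lost without low glucose replicate 1 (adjusted p = 0.0563), 2 (0.0707) or 3 (0.0668) and without high glucose replicate 2 (0.0628).

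The member with the most negative log2 change was TRIM22 (ENSG00000132274.16, chr11:5689790-5710863), an antiviral TRIM protein gene. TRIM22 had 13.5, 10.9, 12.6 and 12.9 CPM in the low glucose libraries and 4.73, 4.46, 4.62 and 4.799 CPM in the high glucose libraries. The fall was 2.68-fold in mean CPM, and the 4 high glucose libraries lay within a narrow range (log2 change -1.25 ± 0.070 SE, adjusted p = 1.27e-05). SP110 and SP100, both components of nuclear bodies, also fell. SP110 had 21.2, 22.5, 19.6 and 20.6 CPM at 5 mM and 13.2, 13.1, 14.1 and 15.3 CPM at 25 mM glucose (log2 change -0.56 ± 0.061 SE, adjusted p = 0.000286). SP100 had 52.9, 46.4, 48.3 and 50.8 CPM at low glucose and 35.01, 35.95, 33.9 and 39.9 CPM at high glucose (log2 change -0.45 ± 0.060 SE, adjusted p = 0.000796). In neither gene did the groups overlap. TRIM21, a cytosolic antibody receptor, averaged 12.6 CPM at low against 11.6 CPM at high glucose and did not pass (log2 change -0.11 ± 0.10 SE, adjusted p = 0.426).

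Of the 12 remaining effectors 10 fell. LGALS3BP (ENSG00000108679.13), a secreted glycoprotein that binds galectin-3, had 157, 167, 168 and 164 CPM in the low glucose libraries and 83.4, 80.9, 68.6 and 59.99 CPM in the high glucose libraries. It fell 2.24-fold (log2 change -1.16 ± 0.10 SE, adjusted p = 9.91e-05), with no overlap between the groups. IFI44L, a gene named for its induction by interferon, had 25.8, 24.02, 24.8 and 26.1 CPM at 5 mM and 11.4, 11.6, 13.1 and 12.98 CPM at 25 mM glucose (log2 change -0.98 ± 0.056 SE, adjusted p = 1.31e-05). Its neighbor IFI44 had 42.8, 43.2, 42.05 and 42.5 CPM at low glucose and 34.4, 35.2, 32.99 and 31.2 CPM at high glucose (log2 change -0.34 ± 0.038 SE, adjusted p = 0.000282). Both genes separated the groups, and IFI44L had the more negative estimate. IFI35, whose protein pairs with NMI, had 36.01, 35.6, 35.2 and 33.3 CPM in the low glucose libraries and 21.2, 14.7, 14.3 and 12.2 CPM in the high glucose libraries (log2 change -1.14 ± 0.15 SE, adjusted p = 0.000684), and high glucose replicate 1 was again the highest of its group.

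The related genes SAMD9 and SAMD9L, whose proteins inhibit translation during poxvirus infection, fell from 42.05 to 23.9 CPM (log2 change -0.80, adjusted p = 0.000379) and from 37.6 to 24.2 CPM (-0.63, adjusted p = 0.00372). XAF1, which promotes apoptosis, fell from 21.1 to 11.9 CPM (-0.79, adjusted p = 0.000776), and 74.2% of its transcript lies opposite exons of an antisense gene whose reads could not be told apart if counting ignored the strand. IFI6, a mitochondrial and endoplasmic reticulum protein, fell from 17.7 to 11.2 CPM (-0.62, adjusted p = 0.00153). PLSCR1, a phospholipid scramblase, fell from 15.8 to 12.002 CPM (-0.37, adjusted p = 0.00415). EPSTI1 fell from 3.28 to 2.23 CPM (-0.40, adjusted p = 0.0333), a call that was lost without low glucose replicate 2 (adjusted p = 0.0815) or 4 (0.0759) and without high glucose replicate 1 (0.0741), 2 (0.0698) or 3 (0.0763). IFI27 (-0.33, adjusted p = 0.127) and the exonuclease gene ISG20 (-0.31, adjusted p = 0.314), both of low abundance, did not pass.

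Several members are neighbors on a chromosome and are not independent points. The 4 IFIT genes lie within chr10:89302046-89420997, and their changes ran from -0.35 to -0.032. The genes OAS1, OAS3 and OAS2 lie within chr12:112906962-113011723, with changes from -1.03 to -0.75. The IFITM genes lie within chr11:307816-320860, with changes from -0.998 to -0.54. The pair HERC6 and HERC5, at chr4:88378852-88443097 and chr4:88457119-88506163, is the neighboring group in which a member fell and another rose. All positions are RefSeq on GRCh38.p14.

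Levels can be compared between genes only per transcript length, here as CPM per 1000 bases of the canonical transcript at low glucose. On that scale IFITM3 was the most abundant member at 392, followed by LGALS3BP at 74.5, STAT2 at 37.6, ADAR at 35.1, UBE2L6 at 34.9 and ISG15 at 30.96. STAT2 was thus about as abundant per length as ADAR and UBE2L6 at low glucose, and at 18.5 at high glucose it was below ADAR at 32.4. The sensors were far lower, with 4.796 for DDX58, 2.43 for DHX58 and 2.395 for IFIH1. The lowest values were those of OASL at 0.959, EPSTI1 at 1.06 and OAS1 at 1.13. Across the 50 members, the change and this level had a Spearman correlation of -0.14 and the change and transcript length one of 0.14, both given as descriptions over genes that share the same libraries.

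High glucose replicate 1 stood apart by transcript length, and replicate 4 deviated in the opposite direction. Its difference from the mean of the other 3 high glucose libraries had a Spearman correlation of -0.77 with the length of the canonical transcript across the 50 members, whose lengths run from 611 to 9975 bases. For high glucose replicates 2, 3 and 4 the same measure was 0.10, 0.41 and 0.69. These values all share replicate 1 in their comparison, but they differ, and that of replicate 4 was far above that of replicate 2. For the low glucose libraries the measure lay between -0.051 and 0.11. In all 9 members shorter than 1500 bases replicate 1 was the highest high glucose library, and in 9 of the 11 longer than 5000 bases it was the lowest. Without replicate 1, 36 members fell and 2 rose, and 48 of the 50 had the same call, the exceptions being ISG15 and EPSTI1 as given above. Leaving out replicate 4 instead, 36 members fell and 2 rose as well.

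**Figure D4:**
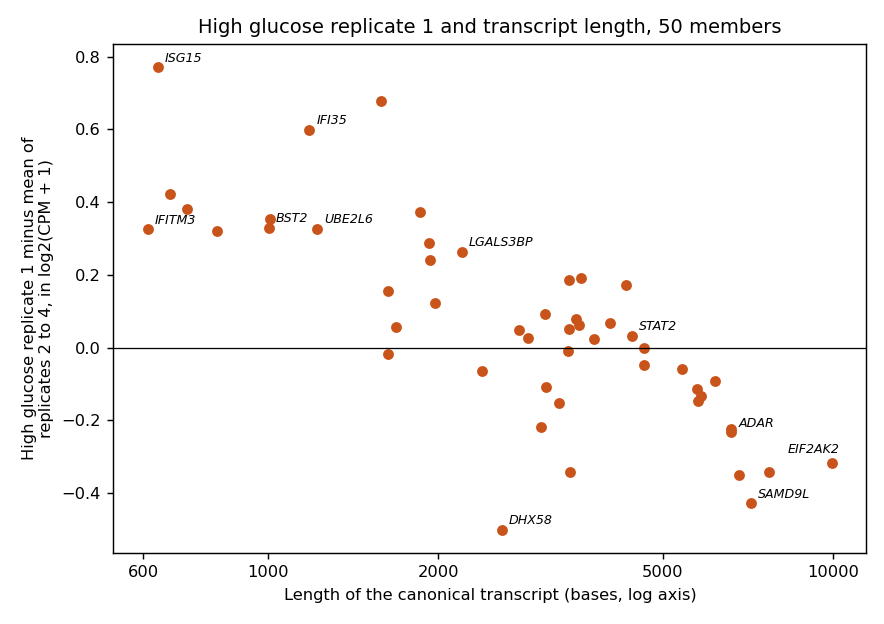
Difference between high glucose replicate 1 and the mean of replicates 2 to 4, in log2(CPM + 1), against the length of the canonical transcript (log axis) for the 50 members. Short transcripts such as ISG15, IFITM3 and IFI35 lie above 0 and the longest, EIF2AK2 and SAMD9L among them, lie below, with a Spearman correlation of -0.77.

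Upstream of the members, the receptor chains and kinases of the pathway were detected. Of the 20 interferon genes considered, 19 were not analysed here, and IFNE was at or below 0.0849 CPM, about 1 read, in every library. Of the 11 receptors, kinases and STATs, 4 fell, 1 rose and 6 did not pass, with a median log2 change of -0.14. All 11 had a mean of at least 1 CPM, and among all genes at that level 32.6% fell and 29.5% rose. The 36.4% of this list that fell is near that share. The kinase TYK2 fell from 80.5 to 52.8 CPM (log2 change -0.60 ± 0.063 SE, adjusted p = 0.00023), JAK1 from 132 to 114 CPM (adjusted p = 0.0174) and the receptor chain IFNAR1 from 146 to 125 CPM (adjusted p = 0.00894). JAK2 (adjusted p = 0.544), IFNAR2 (0.257), IFNGR1 (0.677) and IFNGR2 (0.272) did not pass. STAT3, which mediates cytokines of the IL-6 family, rose from 112 to 141 CPM (log2 change 0.33 ± 0.044 SE, adjusted p = 0.000814).

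Of 21 genes of nucleic acid sensing outside the members, 5 fell, 4 rose and 12 did not pass, with a median of 0.033. Of all genes, 24.8% fell and 22.0% rose. All but 2 of this list had a mean of at least 1 CPM, and among all genes at that level 32.6% fell and 29.5% rose. The 23.8% of the list that fell is near the first share and below the second. Among the genes that fell were the adaptors STING1 and MAVS. STING1, the adaptor of DNA sensing, had 139, 133, 135 and 130.2 CPM at 5 mM and 75.4, 68.2, 65.2 and 69.3 CPM at 25 mM glucose (log2 change -0.94 ± 0.045 SE, adjusted p = 6.25e-06). MAVS, the mitochondrial adaptor through which RIG-I and MDA5 signal, had 173, 181, 181 and 175 CPM at low glucose and 88.6, 114, 109 and 114 CPM at high glucose (log2 change -0.74 ± 0.082 SE, adjusted p = 0.000293). CGAS, the enzyme that makes the ligand of STING1, moved the other way with 13.3, 13.2, 15.03 and 13.1 CPM in the low glucose libraries and 22.6, 20.9, 16.9 and 22.04 CPM in the high glucose libraries (log2 change 0.56 ± 0.096 SE, adjusted p = 0.00255). In all 3 the groups were separate. The endosomal receptor TLR3, the kinase IKBKE and the exonuclease TREX1 also fell, while TICAM1, TRAF6 and AZI2 rose. The exons of TREX1 lie wholly under exons of ATRIP on the same strand, 79.8% of the AZI2 transcript lies opposite exons of other genes, and the TICAM1 groups overlapped. The kinase TBK1 (0.045, adjusted p = 0.714) and the factor it activates, IRF3 (0.038, adjusted p = 0.863), did not pass.

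Of 14 negative regulators, 2 fell (14.3%), 3 rose and 9 did not pass, with a median of 0.083. Among all genes 24.8% were lower and 22.0% higher. For genes with a mean of at least 1 CPM, a level reached by all but 1 of this list, the shares were 32.6% and 29.5%. The phosphatase genes PTPN1 and PTPN2 rose, PTPN1 from 145 to 194 CPM (log2 change 0.42 ± 0.022 SE, adjusted p = 8.91e-06) and PTPN2 from 53.5 to 73.3 CPM (log2 change 0.45 ± 0.040 SE, adjusted p = 9.71e-05), as did the ligase PIAS4. The phosphatase genes PTPN11 (adjusted p = 0.069) and PTPN6 (adjusted p = 0.672) did not pass. CISH and IRF2 fell. SOCS1 (0.080, adjusted p = 0.738) and SOCS3 (-0.093, adjusted p = 0.263), inhibitors that interferon itself induces, did not pass.

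A further list of 39 interferon-stimulated genes outside the 50 members gave 18 that fell (46.2%), 5 that rose and 16 that did not pass. The median log2 change of this list was -0.24. Over all genes 24.8% fell and 22.0% rose, and among those with a mean of at least 1 CPM 32.6% fell and 29.5% rose. WARS1, the cytoplasmic tryptophanyl-tRNA synthetase, fell from 397 to 180.2 CPM (log2 change -1.14 ± 0.037 SE, adjusted p = 1.78e-06). APOL1 fell from 43.4 to 21.3 CPM (log2 change -0.996 ± 0.048 SE, adjusted p = 7.11e-06) and TRIM5, a retroviral restriction factor, from 40.4 to 23.7 CPM (log2 change -0.74 ± 0.050 SE, adjusted p = 2.75e-05). IFI30, a lysosomal thiol reductase, rose from 132 to 395 CPM (log2 change 1.57 ± 0.092 SE, adjusted p = 1.49e-05), the largest change of any gene on these lists, although its whole transcript lies under exons of another annotated gene on the same strand. Of 17 genes of HLA class I presentation, 11 fell (64.7%), 2 rose and 4 did not pass, with a median of -0.35, beside the same shares over all genes. These lists were compiled with results of these data known, and no list was tested as a set.

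**Figure D5:**
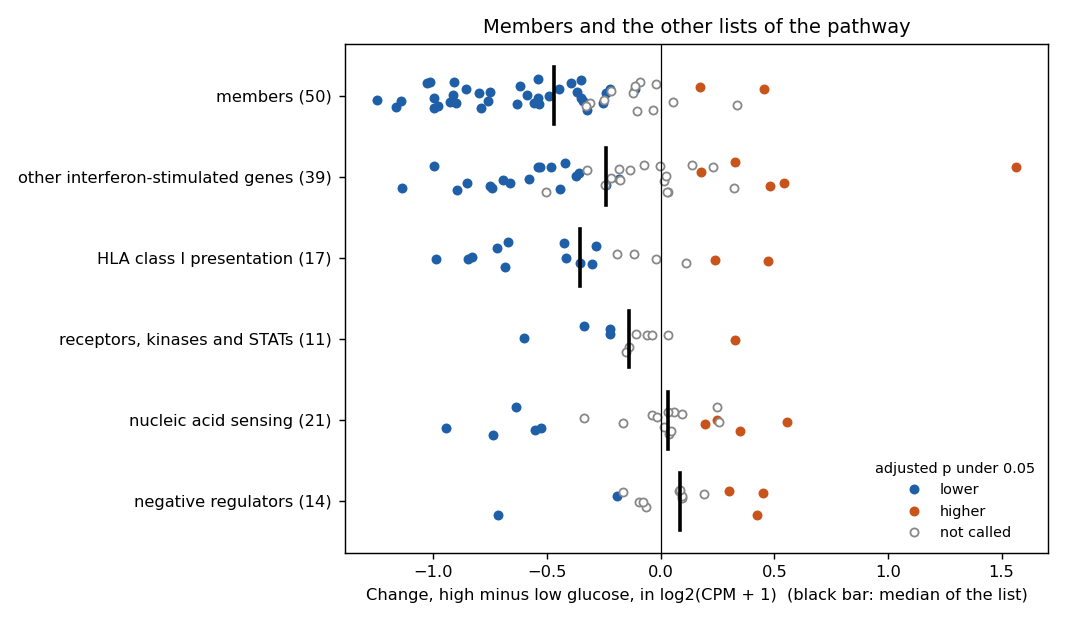
Log2 change between high and low glucose for the 50 members and 5 further lists, with the median of each list as a black bar. Blue points fell, orange points rose and open points did not pass an adjusted p of 0.05. The medians are -0.47 for the members, -0.24 for other interferon-stimulated genes, -0.35 for HLA class I presentation, -0.14 for receptors, kinases and STATs, 0.033 for nucleic acid sensing and 0.083 for negative regulators.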

How the data were processed

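Libraries from total RNA of MDA-MB-157 cells at low and high glucose, 4 each, were mapped to groups by the treatment label. The authors deposited counts per 1000000 reads (CPM) scaled by trimmed mean of M values factors, and per the submitters' processing notes edgeR and the build hg38 were used. The study's methods name hg19 in a section written first for tumors. The counting tool, its use of strand and the annotation are not given in the sources used here. The deposited CPM values lay on steps of 1 read, from which 9721640 to 12482500 reads per library were estimated, but only 72.0% to 73.3% of low values were whole steps (within 0.005 of a read), so no count model was run. These totals bear on counting error alone, because without molecular identifiers several reads can stem from 1 molecule. Of 21077 lines, 18 pseudoautosomal Y copies identical to the X line were left out.

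Values were analysed as log2(CPM + 1) with no filter, using limma 3.58.1 in R 4.3.3 (lmFit, eBayes with trend, 2-sided, without covariates). Adjusted p-values are those of Benjamini and Hochberg across the 21059 genes of the table, and genes under 0.05 were called. A fold change on this scale understates the change of low genes. Means are given with SD and log2 changes with SE. Promoters were RefSeq windows on GRCh38.p14, and transcript lengths, overlapping exons and shared 31-base words came from GENCODE release 44 mapped to GRCh37, canonical transcripts, with no coordinates from that build. Every member could be named, as the list was given, and library values are given for the factors, the sensors, ISG15, up to 3 members of each other role with the smallest adjusted p and any member that rose, with a few more. Outside the members, a set of receptor, kinase and sensing genes and up to 4 per list with the smallest adjusted p were named. Some listed genes are counted but not reported by name here. The members and lists were chosen with earlier results of these data known.

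Alternatives were a pseudocount of 0.1 CPM, a filter at a mean of 1 CPM, 2 other scalings, the replicate number as a block, removal of a trend with transcript length within each library (fitted only on the 14285 genes with a mean of at least 1 CPM and a known length), and leaving out each library. Libraries with the same number were not paired: the correlations of their deviations from the group means ran from -0.04 to 0.05, and for different numbers from -0.06 to 0.05.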

Additional observations from a re-analysis of the deposited data

Results flagged for a closer look

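In each group of 4 libraries the gap between the highest or lowest value and its nearest neighbor, divided by the range, was compared with Dixon's critical value for 4 samples. Of 172 groups examined over the members, the named pathway genes and the depth, 8 were past it, and chance gives about 8.6. OAS1 at high glucose had a ratio of 0.854 (replicate 2 low, 0.239 CPM). MX2 had 0.849 at low glucose (replicate 3 high, 19.96 CPM) and 0.866 at high glucose (replicate 2 low, 12.8 CPM). IFI6 at low glucose had 0.902 (replicate 1 high, 19.9 CPM). XAF1 at low glucose had 0.844 (replicate 2 low, 18.7 CPM). CGAS at low glucose had 0.926 (replicate 3 high, 15.03 CPM). IFNE at low glucose had 1, since only replicate 3 was above 0 (0.0849 CPM). The estimated depth at low glucose had 0.864 (replicate 4, 12104200 reads). Each of the 4 members named here was called lower in all alternatives tried. High glucose replicate 1 was in none of the 8.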

How the results depend on the processing

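The main results kept their direction under 6 alternative settings and 8 fits that each left out a library. Over the fits without a library, 34 to 38 members were called, of which 32 to 36 fell and 2 to 3 rose. The median log2 change of the members was -0.48 to -0.44, and the count over all genes was 8899 to 10156. That of the other genes of the pathway was 50 to 60 (55 as reported). These other genes are IFNE and the lists of 11, 21, 14, 39 and 17 genes given above, HLA class I presentation included. As reported, 46.8% of all genes were called, and the count of 55 is not read as a result about these lists. The replicate numbers did not pair the libraries. With the replicate block, 38 members (36 lower, 2 higher), 49 other genes of the pathway and 8921 genes in all were called, against 38, 55 and 9849 without it. Of the 50 members, 41 kept both sign and call in all 14 settings, 32 of them lower and 2 higher. The estimate of EIF2AK2 changed sign with median-of-ratios scaling (0.0094) and equal totals (0.0022), and that of IL10RB with the length trend removed (0.0029). Over the fits that each left out a library, the estimates of 6 genes took both signs: EIF2AK2 from -0.065 to 0.057, RSAD2 from -0.0078 to 0.14, IRF3 from -0.073 to 0.12, TBK1 from -0.0017 to 0.11, IFNGR1 from -0.020 to 0.056 and SOCS1 from -0.041 to 0.18. None of these 7 genes passed the test. The calls of TRIM25, DDX58, PARP14 and EPSTI1 were lost and those of IRF7, ADAR and ISG15 gained in the settings given with their values. For these genes the cause was not tested. Both other scalings moved the median of the genes with a mean of at least 1 CPM by 0.029 and 0.023. Depth limited OAS1, which was at 3 reads in its lowest library.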

Other observations

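B2M, the light chain of HLA class I and itself inducible by interferon, was listed at 0.0834, 0, 0 and 0.0728 CPM at low glucose and 0.0706, 0.159, 0.165 and 0.0889 CPM at high glucose, or at most 2 reads in a library. B2M is a gene that nearly every cell uses, and no change is read from these values.

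Some genes of antigen processing changed together with the members and others apart from them. The peptide-trimming enzymes ERAP2 and ERAP1 fell from 66.9 to 33.3 CPM (log2 change -0.99 ± 0.082 SE, adjusted p = 7.27e-05) and from 37.8 to 23.4 CPM (log2 change -0.67 ± 0.058 SE, adjusted p = 8.48e-05). The loading chaperone TAPBP fell from 140.4 to 84.8 CPM (log2 change -0.72 ± 0.032 SE, adjusted p = 5.03e-06). Exons of other genes lie opposite 40.5% of the TAPBP transcript and 13.2% of the ERAP1 transcript, and their reads could not be told apart if counting ignored the strand. HLA-E, the ligand of an inhibitory receptor on natural killer cells, rose from 257 to 359 CPM (log2 change 0.47 ± 0.061 SE, adjusted p = 0.000609), with 11.2% of its 31-base words also found in another gene, so part of its reads may be uncertain.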
